A study of Mus musculus with 8 samples.

Results

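The transcripts described are 10 genes of the egg coat and of oocyte signalling: the zona pellucida proteins Zp1, Zp2 and Zp3, the oocyte secreted factors Gdf9, Bmp15 and Oosp1, and the oocyte transcription regulators Figla, Nobox, Sohlh1 and Sohlh2. They were picked by gene symbol, and all 10 were found among the 37310 genes counted in each library. They were read in pools of 2-cell mouse embryos of the C57BL/6N strain, 4 DKO pools and 4 wild-type (WT) pools, where DKO stands for a double knockout of Gadd45a and Gadd45b. Each pool held embryos of 1 litter, between 27 and 35 in DKO replicates 2 to 4, 23 in DKO replicate 1 and 23 to 30 in the WT pools. The embryos came from superovulated, naturally mated females of 3 to 4 weeks and were taken 20 h after the plug was seen. Mothers of DKO pools were DKO themselves, so loss of the genes in the oocyte and loss in the embryo cannot be told apart.

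The zona pellucida is the glycoprotein coat that the growing oocyte lays around itself. ZP2 and ZP3 build its filaments and ZP1 cross-links them. GDF9 and BMP15 are related growth factors of the TGF-beta superfamily that the oocyte secretes, as homodimers or together, to steer the surrounding granulosa and cumulus cells, and OOSP1 is a small secreted oocyte protein whose role is less well defined. FIGLA, a basic helix-loop-helix factor, is needed for zona gene transcription. NOBOX is a homeobox factor needed for Gdf9 and Bmp15 transcription in mouse ovary, and SOHLH1 and SOHLH2 are helix-loop-helix partners that act at the start of oocyte growth. RNA of such genes in a cleaving embryo is mostly inherited from the oocyte and is degraded as the embryo switches on its own genome.

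Libraries held 21329736 to 23919114 counts, and 14970 genes passed the filter on low counts. Gadd45b had 1 to 14 counts in DKO pools against 808 to 1395 in WT pools, which fits the labels of all 8. Gadd45a had 163 to 247 counts in DKO pools against 341 to 502 in WT pools (edgeR adjusted p = 0.303). Whether those DKO counts come from a part of Gadd45a outside the deletion was not tested. Markers of the 2-cell stage were present in every pool, with a summed level of 813 to 1193 CPM (counts scaled to a common library total, with TMM factors) in DKO pools and 596 to 1054 CPM in WT pools over 8 matched genes. In log2 fold change, DKO over WT, 6 of the 8 were above 0 and 2 below. These 2 were Zscan4c at −0.06 and Tdpoz4 at −0.88 (edgeR adjusted p = 0.940 and 0.469). Of 20 cumulus and granulosa cell markers, Amh, Foxl2, Inhba, Ptx3 and Ereg had 0 counts in all libraries. Of the 20, 7 passed the filter on low counts. The summed level of the 20 was 104 to 148 CPM in DKO pools and 120 to 178 CPM in WT pools, carried mainly by Nr5a2 and Amhr2. Whether the Nr5a2 and Amhr2 counts came from cumulus or granulosa cells or from the embryos was not tested. DKO replicate 1 was the least typical pool: limma-voom gave it a quality weight of 0.365, against 0.786 to 2.08 for the other 7. Results that lean on it are given with and without it. The samples are whole embryos, so fewer contributing cells and less RNA per cell cannot be told apart. Only polyadenylated RNA was read, so less RNA and shorter poly(A) tails cannot be told apart either.

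Oosp1, Bmp15 and Zp3 were the most abundant of the 10 transcripts per kilobase of exon. Averaged over the 8 pools, Oosp1 stood at 1115 ± 444 CPM per kb, Bmp15 at 216 ± 52.1 and Zp3 at 111 ± 16.6 (SD, n = 8). Gdf9 followed at 31.9 ± 8.52 CPM per kb and Zp2 at 30.1 ± 2.04 (SD, n = 8), and the ranges of these neighbours overlapped. Zp1, between 8.51 and 17.9 CPM per kb, overlapped with Nobox, between 5.33 and 8.69. Sohlh1, Sohlh2 and Figla closed the order at 0.983 ± 0.521, 0.780 ± 0.735 and 0.632 ± 0.646 CPM per kb (SD, n = 8), with overlapping ranges. Per length, Oosp1 was above 99.8% of 14415 tested genes with a known length, and Zp3 was above 96.0%, while Sohlh1 was above 30.0% and Figla above 22.5%. In mean level per length, the zona proteins and secreted factors were all above the 4 regulators.

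**Figure D1:**
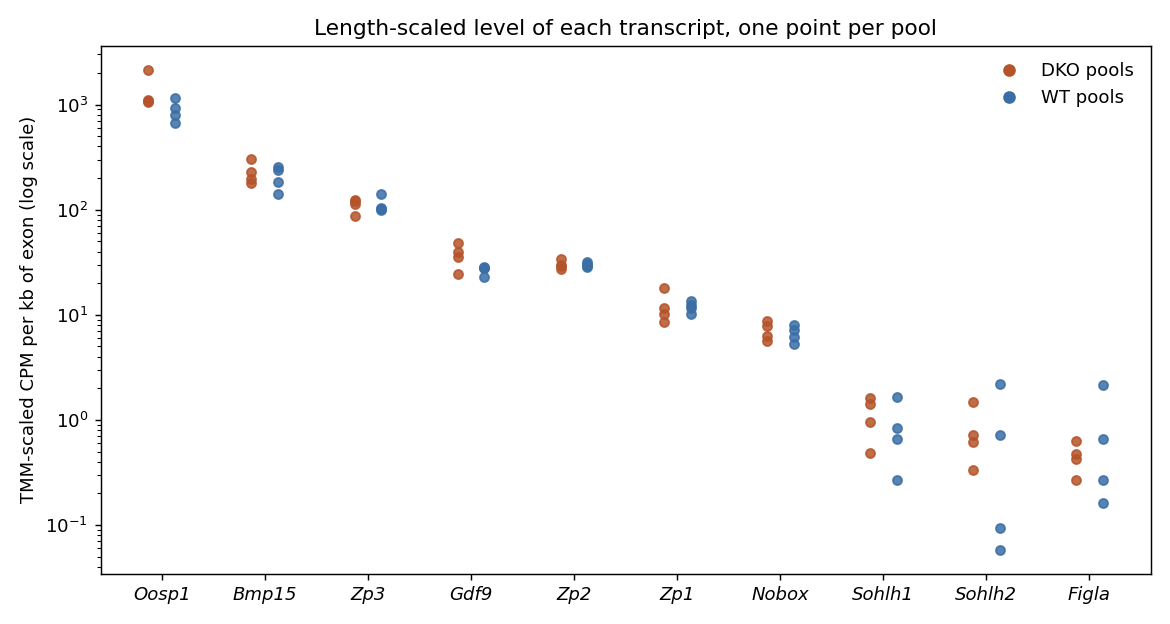
Level of each of the 10 transcripts in TMM-scaled CPM per kilobase of exon on a log scale, with a point for each of the 4 DKO pools (left column of a gene) and the 4 WT pools (right column). Oosp1, at 1115 CPM per kb on average, leads the order, and Sohlh1, Sohlh2 and Figla form the low end with wide scatter.

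The upstream sequences of the 3 most abundant transcripts are shown because E-boxes are the sites that FIGLA and the SOHLH factors bind, and short TAAT-type sites are bound by NOBOX. The 250 bases before the start of each gene were taken from RefSeq on GRCm38.p6, whereas the counts were made on an older assembly. They are printed 5′ to 3′, with capitals marking matches on either strand to the E-box CANNTG or to the NOBOX-type elements TAATTG or TAGTTG or TAATTA.
Oosp1, chr19:11691052-11691301, minus strand: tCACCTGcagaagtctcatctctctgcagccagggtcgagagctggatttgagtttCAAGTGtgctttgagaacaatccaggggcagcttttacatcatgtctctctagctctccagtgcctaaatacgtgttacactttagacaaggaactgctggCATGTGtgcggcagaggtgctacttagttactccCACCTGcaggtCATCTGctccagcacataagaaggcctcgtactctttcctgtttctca
Bmp15, chrX:6320725-6320974, minus strand: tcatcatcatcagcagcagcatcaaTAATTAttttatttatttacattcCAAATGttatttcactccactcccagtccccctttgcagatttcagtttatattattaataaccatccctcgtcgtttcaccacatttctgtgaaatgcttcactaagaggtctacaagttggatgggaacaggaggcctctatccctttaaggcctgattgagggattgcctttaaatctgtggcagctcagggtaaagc
Zp3, chr5:135979855-135980104, plus strand: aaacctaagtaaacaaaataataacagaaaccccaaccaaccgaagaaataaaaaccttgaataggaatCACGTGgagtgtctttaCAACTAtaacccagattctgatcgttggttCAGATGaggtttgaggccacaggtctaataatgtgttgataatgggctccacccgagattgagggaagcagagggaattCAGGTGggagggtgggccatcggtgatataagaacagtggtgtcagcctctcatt
The Oosp1 window held 5 E-boxes and no NOBOX-type element, the Bmp15 window held 1 of each, and the Zp3 window held 3 E-boxes and 1 NOBOX-type element. An E-box was present in 66.2% of 32536 promoter windows of the same length and a NOBOX-type element in 16.0%, while 12.2% had at least 3 E-boxes. Of the regulators, Sohlh1 had 5 E-boxes in its window, Figla and Nobox had 2 each and Sohlh2 had 1. No NOBOX-type element was found in these 4 windows. Zp1, Zp2 and Gdf9 had no sequence in the promoter set used and were not searched. The matches are letters in a window and were not tested for binding.

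The main comparison asked whether any of these transcripts differed between DKO and WT embryos. None of the 9 tested members passed edgeR's quasi-likelihood test at an adjusted p of 0.05, beside 0.0267% of all 14970 genes, of which 0.00668% were called higher in DKO. None was called by DESeq2, which called 0.264% of its genes, or by limma-voom, which called 0.0334%. At an unadjusted p under 0.05 there were 2 members, Gdf9 and Oosp1, both higher in DKO, beside 10.2% of all genes in either direction and 5.79% in the higher direction. The DKO and WT values overlapped for all 10 members, while they did not overlap for 5.34% of the genes tested, 2.79% with DKO higher. The 9 tested members had a median log2 fold change of 0.10, and all tested genes had a median of 0.01. Of the 9, 8 were above 0, against 51.2% of all genes, but the 3 zona transcripts and Sohlh2 were within 0.04 of 0. Without DKO replicate 1, 6 of the 9 were above 0, at a median of 0.041, and no member had an unadjusted p under 0.05. Of all 15312 genes tested without that pool, 7489 were above 0, at a median of −0.0077. An edgeR unadjusted p under 0.05 was then found for 874 of these genes, against 1532 of 14970 with all pools. The tenth member, Figla, did not pass the filter on low counts.

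The mean levels of the zona transcripts lay close together in DKO and WT pools. Zp2, the zona protein that is cleaved after fertilization to block further sperm, was at 81.4, 74.1, 79.4 and 92.2 CPM in DKO replicates 1 to 4 and at 87.0, 82.5, 78.4 and 80.1 CPM in WT replicates 1 to 4. The DKO pools spanned the WT range on both sides, and Zp2 was the steadiest of the 10 transcripts, with a coefficient of variation of 9.27% in DKO and 4.59% in WT. Its mean was 81.8 ± 7.58 CPM in DKO and 82.0 ± 3.76 CPM in WT (SD, n = 4 each). The 95% interval of its fold change, DKO over WT, was 0.811 to 1.23 (edgeR adjusted p = 0.994).

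Zp3, which carries the other main filament protein of the coat, was at 116, 158, 151 and 164 CPM in DKO replicates 1 to 4. In WT replicates 1 to 4 it was at 138, 132, 133 and 185 CPM. DKO replicate 1 was the lowest of all 8 pools and WT replicate 4 the highest. The means were 147 ± 21.6 CPM in DKO and 147 ± 25.6 CPM in WT (SD, n = 4 each), and the 95% interval of the fold change was 0.786 to 1.28 (edgeR adjusted p = 0.997).

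Zp1, the filament cross-linker, was at 22.8, 16.9, 20.0 and 35.5 CPM in DKO replicates 1 to 4, against 24.6, 23.1, 26.9 and 20.2 CPM in WT replicates 1 to 4. DKO replicate 4 was above every WT pool, while DKO replicates 2 and 3 were below all of them. The means nearly coincided, at 23.8 ± 8.18 CPM in DKO and 23.7 ± 2.82 CPM in WT (SD, n = 4 each), with a 95% interval of the fold change from 0.717 to 1.41 (edgeR adjusted p = 0.994). The intervals therefore leave room for differences of up to about 1.41-fold for Zp1 and 1.23-fold for Zp2.

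The proportions among the zona transcripts were read within each library, where no scaling enters. There were 0.197, 0.106, 0.132 and 0.216 Zp1 counts per Zp3 count in DKO replicates 1 to 4 and 0.178, 0.175, 0.202 and 0.109 in WT replicates 1 to 4. Zp2 had 0.702, 0.468, 0.526 and 0.562 counts per Zp3 count in DKO replicates 1 to 4 and 0.632, 0.624, 0.588 and 0.432 in WT replicates 1 to 4. Both sets of ratios overlapped between the genotypes. The difference in mean log2 ratio was −0.05 for Zp1 to Zp3 and −0.01 for Zp2 to Zp3 (exact permutation test, two-sided, 4 pools a genotype, p = 0.914 and 0.943, adjusted p = 0.943 for both over 3 ratios). The smallest p this design allows is 0.0286.

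The 3 secreted factors had higher means in DKO pools, with no call, and DKO replicate 1 held the highest value of each. Oosp1 was at 2077, 1040, 1025 and 1082 CPM in DKO replicates 1 to 4. In WT replicates 1 to 4 it was at 773, 906, 1114 and 655 CPM. DKO replicate 1 stood far above every other pool, and DKO replicates 2 to 4 lay inside the WT range. The means were 1306 ± 515 CPM in DKO and 862 ± 197 CPM in WT (SD, n = 4 each). The fitted log2 difference, DKO over WT, was 0.60 with an SE of 0.24 (edgeR unadjusted p = 0.0224, adjusted p = 0.469), and without DKO replicate 1 it was 0.28 (edgeR adjusted p = 0.893).

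Gdf9, the growth factor without which follicles stall early in mice, was at 97.5, 49.9, 81.1 and 71.4 CPM in DKO replicates 1 to 4. In WT replicates 1 to 4 it was at 57.9, 56.5, 56.6 and 47.0 CPM. DKO replicates 1, 3 and 4 were above every WT pool, and DKO replicate 2 was inside the WT range. The means were 75.0 ± 19.9 CPM in DKO and 54.5 ± 5.05 CPM in WT (SD, n = 4 each). The fitted log2 difference was 0.46 with an SE of 0.19 (edgeR unadjusted p = 0.0306, adjusted p = 0.471). Without DKO replicate 1 the log2 fold change was 0.30 (edgeR adjusted p = 0.893).

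Bmp15, the X-linked partner of Gdf9, was at 935, 544, 695 and 599 CPM in DKO replicates 1 to 4 and at 733, 557, 787 and 432 CPM in WT replicates 1 to 4. Again DKO replicate 1 was the highest pool, but the groups overlapped widely, at 693 ± 173 CPM in DKO and 627 ± 163 CPM in WT (SD, n = 4 each). The fitted log2 difference was 0.14 with an SE of 0.21 (edgeR adjusted p = 0.81), and it was −0.04 without DKO replicate 1. Gdf9 had 0.104, 0.0919, 0.117 and 0.119 counts per Bmp15 count in DKO replicates 1 to 4 and 0.0790, 0.101, 0.0720 and 0.109 in WT replicates 1 to 4. The mean log2 ratio differed by 0.27 (exact permutation test, two-sided, p = 0.2, adjusted p = 0.6 over 3 ratios).

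DKO replicate 1 did not carry high levels of every egg transcript. Its Oosp1 counts per Zp2 count came to 25.5, against 11.7 to 14.0 in the other DKO pools and 8.18 to 14.2 in the WT pools. As a share of all counts, the 3 secreted factors took 0.326% in DKO replicate 1, 0.163% to 0.185% in the other DKO pools and 0.106% to 0.199% in the WT pools. The 3 zona transcripts took 0.0231% in DKO replicate 1, the lowest of the 8 pools, beside 0.0250% to 0.0291% in the other DKO pools and 0.0237% to 0.0267% in the WT pools. The 10 maternal store markers summed to 18250, 13127, 16002 and 13700 CPM in DKO replicates 1 to 4, and to 13517, 12216, 14647 and 12448 CPM in WT replicates 1 to 4. DKO replicates 1 and 3 were above every WT pool, and the other DKO pools were inside the WT range. The sums were carried mainly by Dppa3, Btg4 and Zbed3. Btg4 was at 5899, 2795, 4481 and 3157 CPM in DKO replicates 1 to 4 and at 1441 to 3367 CPM in WT pools. In log2 fold change, 8 of the 10 markers were above 0 and 2, Padi6 and Nlrp5, below. Padi6 was lowest of all 8 pools in DKO replicate 1, at 55.2 CPM. The part of these maternal levels in the Oosp1 and Gdf9 values was not tested.

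**Figure D2:**
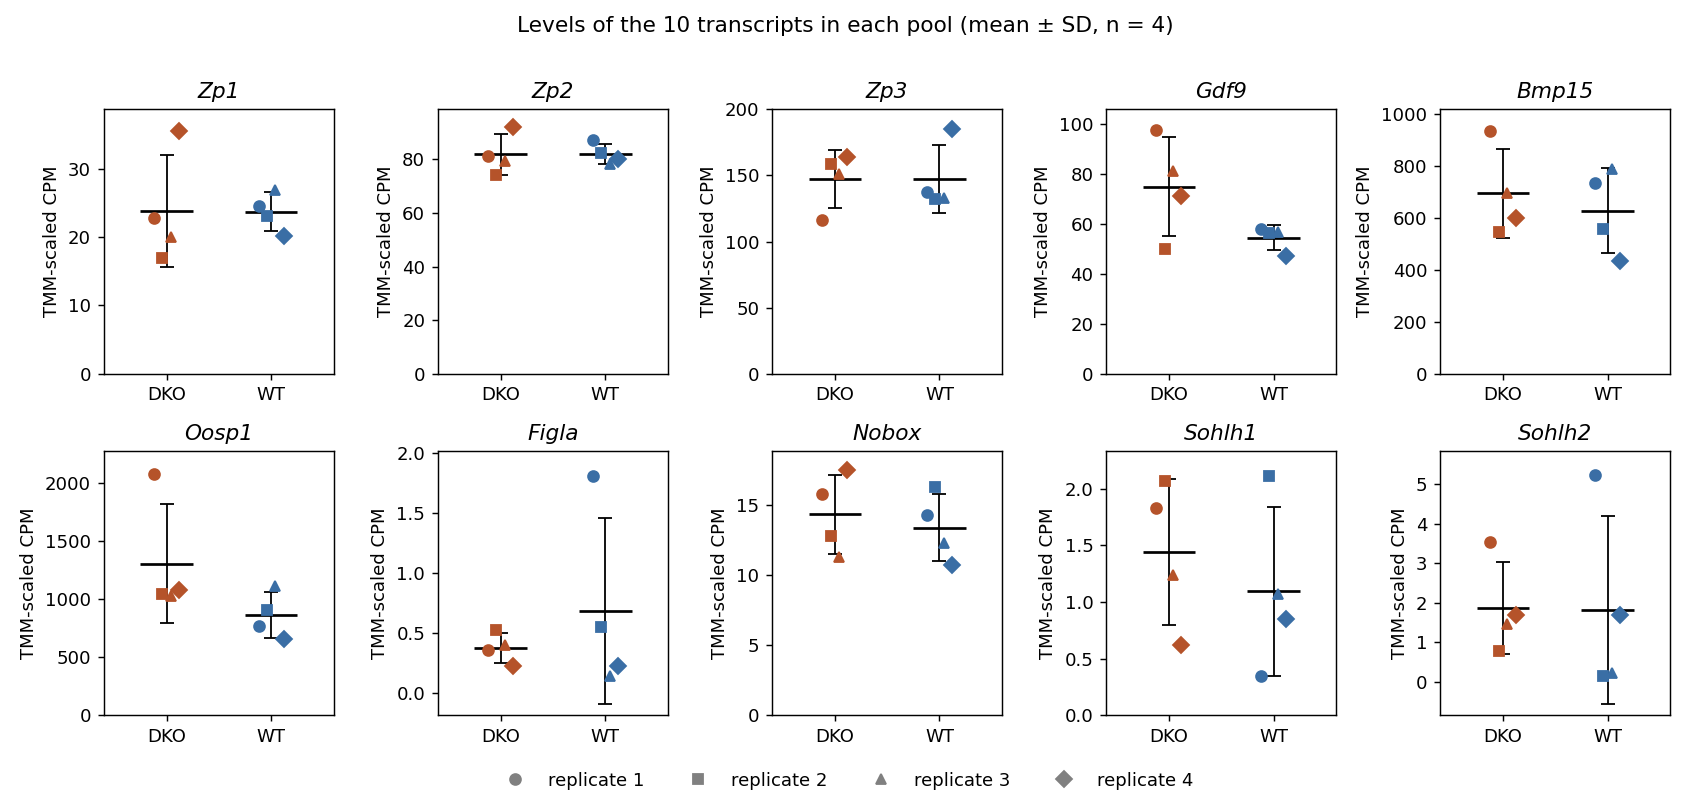
TMM-scaled CPM of each transcript in the 4 DKO pools (left) and the 4 WT pools (right), with the mean as a line, the SD as error bars and a marker shape for each replicate number. Zona transcripts have near-equal means in both genotypes, whereas Oosp1 in DKO replicate 1, at 2077 CPM, lies above all other pools.

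Of the regulators, Nobox had the most counts, 240 to 393 a pool. It was at 15.8, 12.8, 11.3 and 17.5 CPM in DKO replicates 1 to 4 and at 14.3, 16.3, 12.3 and 10.7 CPM in WT replicates 1 to 4. The groups overlapped, at 14.3 ± 2.82 CPM in DKO and 13.4 ± 2.41 CPM in WT (SD, n = 4 each). The fitted log2 difference was 0.10 with an SE of 0.22 (edgeR adjusted p = 0.884).

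Sohlh1, Sohlh2 and Figla were close to the limit of counting and scattered from pool to pool. Sohlh1 had 41, 47, 28 and 14 counts in DKO replicates 1 to 4, against 8, 46, 24 and 19 in WT replicates 1 to 4 (log2 difference 0.39 with an SE of 0.58, edgeR adjusted p = 0.811). Sohlh2 had 79, 18, 33 and 38 counts in DKO replicates 1 to 4, against 121, 3, 5 and 38 in WT replicates 1 to 4 (log2 difference 0.03 with an SE of 0.82, edgeR adjusted p = 0.992). In WT replicates 1 and 2 the counts of these helix-loop-helix partners went in opposite directions. WT replicate 1 had the most Sohlh2 counts and the fewest Sohlh1 counts, and WT replicate 2 the fewest Sohlh2 counts with 46 for Sohlh1. Whether the partners rise and fall together over all pools was not tested. Counting error alone gives a coefficient of variation of 15.5% for Sohlh2 in WT pools, and the observed value was 131%. Reads are not independent molecules, since the libraries were amplified without molecular tags, so counting error is a lower limit.

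Figla had 8, 12, 9 and 5 counts in DKO replicates 1 to 4, against 42, 12, 3 and 5 in WT replicates 1 to 4. In counts, WT replicate 1 alone was above all DKO pools. Fitted without a filter, Figla had a log2 difference of −0.85 with an SE of 0.86 (edgeR adjusted p = 0.694). WT replicate 1 also held 1018 counts of the haemoglobin gene Hba-a1 and 1329 counts of Ovgp1, an oviduct glycoprotein that attaches to the zona. For comparison, Hba-a1 had 1148 counts in DKO replicate 4 and 27 to 68 in the other 6 pools, and Ovgp1 had 72 to 375 counts in the other 7 pools. The source of the Hba-a1 and Ovgp1 counts was not tested, nor whether the Figla and Sohlh2 counts share it. Figla and Nobox lie on chromosome 6 with Gadd45a, 19.0 and 23.7 Mb from it on GRCm38.

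**Figure D3:**
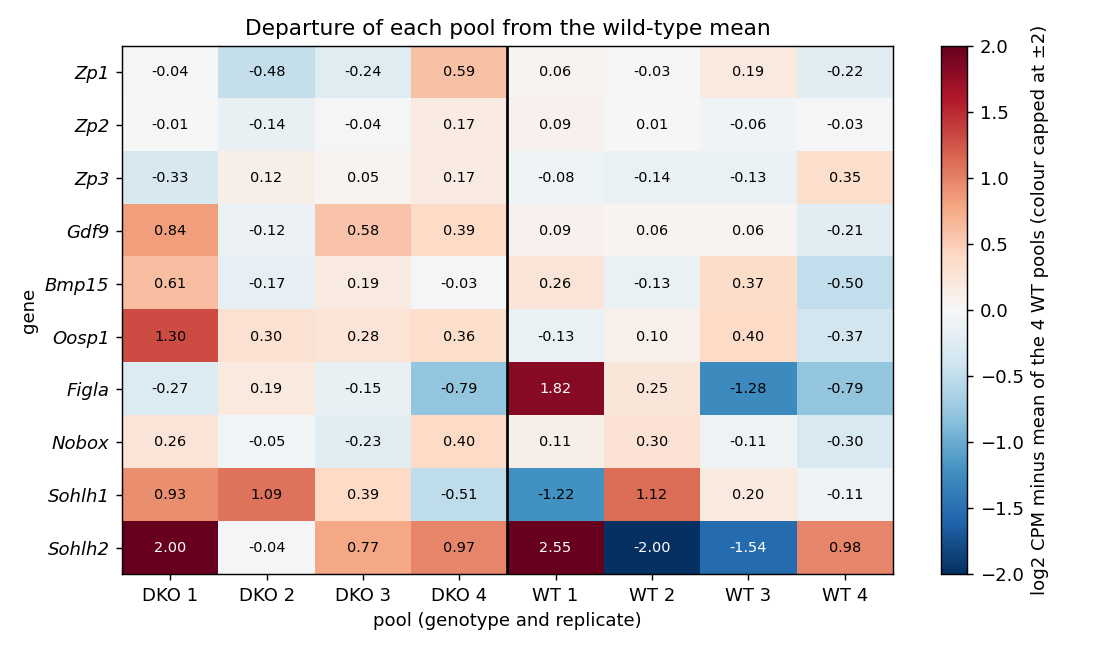
Departure of each pool from the mean of the 4 WT pools in log2 CPM, with the DKO pools in the left columns and the WT pools in the right columns, genes down the page and colour capped at 2 in either direction. Zp2 stays within 0.17 of the WT mean in every pool, and Sohlh2 reaches 2.55 above it in WT replicate 1.

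The precision of the genotype comparison depended on the transcript. Biological variation between pools, as edgeR's tagwise coefficient, was 0.154 for Zp2, 0.174 for Zp3, 0.200 for Gdf9, 0.213 for Bmp15, 0.237 for Oosp1 and 0.547 and 0.788 for Sohlh1 and Sohlh2, beside a median of 0.273 over all tested genes. The 95% intervals of the fold change ran from 1.07 to 2.15 for Oosp1, from 1.03 to 1.83 for Gdf9 and from 0.810 to 1.51 for Bmp15, without adjustment for the number of genes. For Sohlh2 the interval was 0.305 to 3.44, the widest of the 9.

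**Figure D4:**
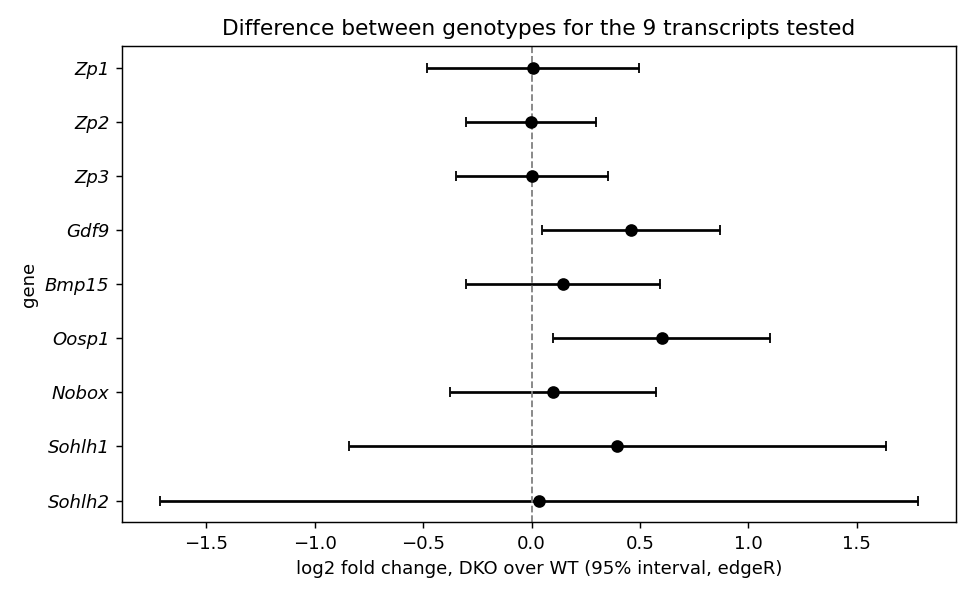
Log2 fold change of DKO over WT for the 9 tested transcripts, with 95% intervals from edgeR's fit that are not adjusted for the number of genes. The intervals of Zp1, Zp2, Zp3, Bmp15 and Nobox include 0, those of Gdf9 and Oosp1 lie above 0, and Sohlh1 and Sohlh2 have the widest, both including 0.

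Genes that act with these factors were read from lists set beside the members. Of 5 other oocyte secreted factors, all 5 were tested, 0 passed the adjusted threshold and all 5 were above 0 on the log2 scale, at a median of 0.37. Of the 5, 1 had an edgeR unadjusted p under 0.05, higher in DKO, beside 5.79% of all genes in that direction. All 5 were also above 0 without DKO replicate 1, at a median of 0.17. None then had an unadjusted p under 0.05, beside 874 of all 15312 genes. The example with the smallest p was Oosp3, which lies near Oosp1 on chromosome 19, at 744, 303, 301 and 331 CPM in DKO replicates 1 to 4 and at 330, 278, 303 and 194 CPM in WT replicates 1 to 4. Like Oosp1 it was highest in DKO replicate 1, and the other pools overlapped (log2 difference 0.60 with an SE of 0.27, edgeR adjusted p = 0.48). Without that pool the log2 difference of Oosp3 was 0.17 (edgeR adjusted p = 0.922). Rspo2, a secreted enhancer of WNT signalling, had a log2 difference of 0.31 with an SE of 0.18 (edgeR adjusted p = 0.536), and of 0.17 without DKO replicate 1 (edgeR adjusted p = 0.916). Of 6 zona and egg surface partners, 5 were matched and 4 tested, with 0 calls. Izumo1r and Astl were above 0 and Cd9 and Ovgp1 below, at −0.16 and −1.11, and the median was 0.13, or 0.02 without DKO replicate 1. The Ovgp1 value leans on WT replicate 1, at 57.4 CPM (SE 0.92, edgeR adjusted p = 0.656). Ovgp1 was at 3.22 to 6.03 CPM in the other WT pools and at 3.40 to 16.5 CPM in DKO pools. Izumo1r, the egg receptor for sperm IZUMO1, averaged 12.9 ± 4.33 CPM in DKO and 9.65 ± 2.40 CPM in WT, and Astl, the protease that cleaves ZP2, 3.66 ± 0.775 CPM in DKO and 2.51 ± 1.27 CPM in WT (SD, n = 4 each, edgeR adjusted p = 0.566 and 0.631). Without DKO replicate 1 the log2 difference was 0.16 for Izumo1r, against 0.42 with it, and 0.53 for Astl, against 0.55 with it.

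Receptors, SMAD proteins and proprotein convertases of the GDF9 and BMP15 pathway were tested for 18 of 22 genes, with 0 calls. Of the 18, 12 were above 0 and the median was 0.16, and 3 had an unadjusted p under 0.05, all higher in DKO, beside 5.79% of all genes in that direction. Without DKO replicate 1, 13 were above 0 and the median was 0.087. Then 1 had an unadjusted p under 0.05, beside 874 of all 15312 genes. Smad3, which relays GDF9 signals, averaged 25.3 ± 8.67 CPM in DKO and 15.4 ± 3.11 CPM in WT (SD, n = 4 each). The log2 difference was 0.71 with an SE of 0.24 (edgeR adjusted p = 0.469). Bmpr1b, a type I receptor for BMP15, was at 39.8, 22.3, 20.6 and 27.8 CPM in DKO replicates 1 to 4 and at 19.6, 17.1, 17.5 and 18.5 CPM in WT replicates 1 to 4. All 4 DKO pools were above all WT pools for Bmpr1b (log2 difference 0.60 with an SE of 0.22, edgeR adjusted p = 0.469). Such a separation, with DKO higher, was found for 2.79% of all 14970 genes tested. Smad3 and Bmpr1b were named because their p values were the smallest among the 18 tested. DKO replicate 1 was the highest pool for both genes. Without it the log2 difference was 0.44 for Smad3 and 0.36 for Bmpr1b (edgeR adjusted p = 0.862 and 0.869).

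Among fellow regulators of the oocyte factors, 9 of 10 were tested with 0 calls, 8 were above 0 and the median was 0.28. An edgeR unadjusted p under 0.05 was found for 3, all higher in DKO, beside 5.79% of all genes in that direction. Leaving out DKO replicate 1 gave 7 above 0, a median of 0.19 and 1 with an unadjusted p under 0.05, beside 874 of all 15312 genes. Foxo3, which restrains the growth of resting follicles, averaged 49.5 ± 15.3 CPM in DKO and 31.9 ± 4.01 CPM in WT (SD, n = 4 each), a log2 difference of 0.64 with an SE of 0.21 (edgeR adjusted p = 0.469). Tbpl2, the oocyte variant of the TATA-binding protein, averaged 10.1 ± 6.94 CPM in DKO and 4.88 ± 2.40 CPM in WT (SD, n = 4 each, edgeR adjusted p = 0.476). In the list of genes known to need Nobox, Figla or the Sohlh genes in mouse ovary, 9 of 11 were tested with 0 calls, 8 were above 0 and the median was 0.20. An edgeR unadjusted p under 0.05 was found for 2, both higher in DKO, beside 5.79% of all genes in that direction. Of the 2, Kit is also among the fellow regulators. In this list 7 were above 0 without DKO replicate 1, at a median of 0.052. None then had an unadjusted p under 0.05, beside 874 of all 15312 genes. Its genes with the smallest p were Kit, the receptor for KIT ligand, at 60.2 ± 21.7 CPM in DKO and 43.2 ± 1.55 CPM in WT, and Rfpl4, at 611 ± 263 CPM in DKO and 398 ± 144 CPM in WT (SD, n = 4 each, edgeR adjusted p = 0.476 and 0.485). DKO replicate 1 was the highest pool for Foxo3, Tbpl2, Kit and Rfpl4. Left out, it took the log2 difference to 0.40 for Foxo3, to 0.52 for Tbpl2, against 1.05 with it, to 0.19 for Kit, against 0.48, and to 0.33 for Rfpl4, against 0.62 (edgeR adjusted p = 0.835 to 0.904).

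The mean course of the members over the pools was taken as the mean of the centred log2 CPM of the 7 members that averaged 1 or more in log2 CPM. It was 0.29, −0.16, −0.00097 and 0.21 in DKO replicates 1 to 4 and −0.03, −0.06, 0.02 and −0.27 in WT replicates 1 to 4. The members strayed from this course by a root mean square of 0.15 for Zp2 up to 0.33 for both Zp3 and Oosp1. Each member enters the course, so these values only describe the spread among members. Over 10213 other genes the median root mean square difference from the course was 0.36, close to the values of Zp3 and Oosp1. The nearest of the 10213 over the 8 libraries were Trafd1, E2f4, Klhdc1, Ccdc6 and Jazf1, at root mean square differences of 0.05, 0.05, 0.06, 0.07 and 0.07.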

How the data were processed

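RNA-seq was read in 8 libraries. Per the labels' protocols, cDNA came from polyadenylated RNA with a SMART-Seq v4 kit and libraries from an Ovation Ultralow kit, each amplified by PCR, and all libraries shared 1 flow cell read as single reads. The authors deposited whole-number counts per Ensembl gene, not normalized; the tools named in the submitters' processing notes include STAR 2.5.2b, featureCounts 1.5.1 and DESeq2 1.18.1 and the builds named there are NCBIM37 and mm9. Settings for strand and multiply mapped reads are not given in the sources used here. On GRCm38 no annotated gene overlaps a member.

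Of 37310 genes, 32620 matched a symbol and the rest were kept. Counts were filtered with filterByExpr, TMM-scaled and fitted across all genes with edgeR 4.0.16 (robust quasi-likelihood test, R 4.3.3, no covariates), with Benjamini-Hochberg adjustment over the genes tested and a threshold of 0.05. Log2 CPM used a prior count of 2. Intervals are at 95%. Ratios used counts plus 0.5 and exact permutation over 70 assignments. Exon lengths came from GENCODE M21. The test was checked on simulated data. Members and lists were chosen with earlier results of these data known; named beside the members were the 2 genes of smallest p in each list and the 5 nearest in profile. Libraries of a genotype differed beyond sampling noise (the lowest chi-square ratio to its degrees of freedom was 22.2), and pools were separate litters. Alternatives were DESeq2 1.42.0, limma-voom (limma 3.58.1) with quality weights, other scalings, filters and thresholds, a replicate block, embryo number as a covariate and each library left out. Leaving out both replicates numbered 1, and DKO replicate 1 for the lists, was chosen after seeing the data.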

Additional observations from a re-analysis of the deposited data

Results flagged for a closer look

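Within groups of 4 pools, a value was singled out where its gap to the nearest pool took more of the group's range than Dixon's criterion allows for 4 values. Of 20 groups examined, 3 were singled out, and chance singles out about 1 in 20. Oosp1 in DKO replicate 1, at 2077 CPM, had a gap of 0.945 of the DKO range. Zp3 in WT replicate 4, at 185 CPM, had a gap of 0.897 of the WT range. Gdf9 in WT replicate 4, at 47.0 CPM, was the lowest WT pool with a gap of 0.871 of the range.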

How the results depend on the processing

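No member passed the adjusted threshold in any of 19 alternatives, while the number of genes called over the whole table, 4, became 49 with DESeq2, 7 with no filter on low counts and 1 at a mean of at least 10 CPM. The median of the members ranged from −0.0025 to 0.25, the highest with embryo number as a covariate. Gdf9 ranged from 0.30 to 0.61 and Oosp1 from 0.24 to 0.74 in log2 fold change, with adjusted p from 0.299 to 0.915 and from 0.279 to 0.925. The sign of values near 0 turned. Zp1 was −0.0041 with RLE scaling, −0.00025 with no filter, −0.13 with embryo number, −0.072 with limma-voom and −0.0062 with DESeq2. Zp3 was −0.0079 with RLE, −0.0049 with no filter, −0.061 with embryo number and −0.011 with DESeq2. Zp2 was 0.049 by library size alone and 0.034 at a mean of at least 10 CPM, and Nobox was −0.062 with limma-voom. With libraries left out, the number of positive members ran from 4 to 8, Zp1 from −0.25 to 0.14, Zp2 from −0.066 to 0.038, Zp3 from −0.055 to 0.13, Bmp15 from −0.040 to 0.26, Nobox from −0.0097 to 0.20, Sohlh1 from −0.038 to 0.93 and Sohlh2 from −0.48 to 1.43. The Zp1 to Zp3 ratio then ran from −0.24 to 0.14 and Zp2 to Zp3 from −0.14 to 0.073, and Gdf9 to Bmp15, 0.27 with all pools, from 0.169 without WT replicate 3 to 0.368 without WT replicate 4. The cause was not tested. The replicate block gave Zp1 −0.046 and Sohlh2 0.89, with 0 members called. Sohlh2, 0.03 in the reported fit, was 0.87 with embryo number and 1.55 with limma-voom, where Sohlh1 was 0.098 against 0.39. Same-numbered pools did not deviate together (r of 0.0024 to 0.08 across genes, which are not independent replicates), so the numbers were not treated as pairs. Counts of 3 to 121 limit Figla, Sohlh1 and Sohlh2.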
